A study of Mus musculus with 6 samples.

Results

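IGHV5-4 is a variable (V) gene of the mouse immunoglobulin heavy chain, and its clonotypes were taken from heavy chain clonotype tables, 1 for an iB-μMT mouse and 1 for a B6 mouse. A clonotype was counted as IGHV5-4 when the first V hit listed for it, without its allele suffix, was IGHV5-4. By this rule, 1243 of 14575 heavy chain clonotypes were IGHV5-4 clonotypes, 1008 of 7794 in the iB-μMT library and 235 of 6781 in the B6 library. The gene was chosen by its large share of the iB-μMT library, so its share in these libraries is given as a description and without a test. The D genes, J genes and junctions of its clonotypes were not used to choose it.

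The iB-μMT mouse was a B cell-deficient μMT recipient, which carries a mutated Ighm gene. It was sublethally irradiated and received iHPCs, hematopoietic progenitors differentiated in culture from the iR9X2-ESC line, a single embryonic stem cell line of C57BL/6 background with a GFP transgene and a doxycycline-inducible Runx1-p2a-Hoxa9-t2a-Lhx2 cassette in Rosa26. The recipient was kept on doxycycline water, and its spleen was taken at week 4. The control was 1 C57BL/6 (B6) mouse without transplantation. Naïve follicular (FO) B cells were sorted from both spleens by surface markers (IgD++ IgM+ CD23++ CD21+ among others), and heavy chain cDNA was amplified from total RNA by 5′ RACE, which needs no V gene primer. There was 1 mouse and 1 library per group, so each test in the following compares these libraries and not the conditions, and the mouse, the transplantation and the library cannot be told apart.

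During B cell development, a heavy chain gene is built by joining a D gene to a J gene and then a V gene to the DJ join. The ends of the segments can be trimmed, palindromic (P) nucleotides can remain from opened hairpins, and terminal deoxynucleotidyl transferase (TdT, encoded by Dntt) can insert nucleotides that no segment encodes. The joined region is CDR3, the most variable loop of the antibody, which lies at the centre of the antigen-binding site. The members of the IGHV5 family intermingle with IGHV2 genes at the D-proximal end of the V gene cluster.

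In RefSeq's annotation of the mouse assembly GRCm38.p6, Ighv5-4 (gene ID 777688) is a V segment at chr12:113597448-113597741, 294 bases long. The submitters' processing notes list the build mm10, the same assembly. Ighv5-4 lies 70.6 kb from the nearest D gene and is the sixth V entry counted from the D genes. Only IGHV5-2 and IGHV2-2 among the entries nearer to the D genes are annotated as V segments, the others being pseudogenes, which makes Ighv5-4 number 3 among the V segments. All 105 V gene names in the tables matched this annotation.

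The CDR3 nucleotide sequences of the IGHV5-4 clonotypes with the most reads show how the junctions were built. They run 5′ to 3′ from the conserved cysteine codon at the end of V to the conserved tryptophan codon of J, and capitals mark nucleotides that MiXCR, the clonotype assembly software, placed between segments. In the iB-μMT library these were:
iB-μMT clonotype 1: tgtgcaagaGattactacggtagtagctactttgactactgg
iB-μMT clonotype 2: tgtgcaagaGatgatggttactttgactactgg
iB-μMT clonotype 3: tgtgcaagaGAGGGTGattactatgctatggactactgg
iB-μMT clonotype 4: tgtgcaagGaactgggactttgactactgg
iB-μMT clonotype 5: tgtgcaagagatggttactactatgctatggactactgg

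These 5 clonotypes had 704, 579, 512, 487 and 419 reads. Clonotype 1 joined IGHD1-1 to IGHJ2, clonotype 2 joined IGHD2-3 to IGHJ2, clonotype 4 joined IGHD4-1 to IGHJ2 and clonotype 5 joined IGHD2-3 to IGHJ4, while clonotype 3 had no D hit and ended in IGHJ4. None of the 4 with a D hit carried an inserted nucleotide between D and J. In the B6 library, the 5 clonotypes with the most reads were:
B6 clonotype 1: tgtgcaagaGgattacCCCttgactactgg
B6 clonotype 2: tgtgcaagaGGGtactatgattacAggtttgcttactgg
B6 clonotype 3: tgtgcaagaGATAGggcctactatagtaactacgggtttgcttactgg
B6 clonotype 4: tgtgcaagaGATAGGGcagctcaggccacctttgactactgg
B6 clonotype 5: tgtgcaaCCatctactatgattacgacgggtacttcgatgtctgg

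They had 436, 422, 417, 408 and 350 reads, and 3 of the 5 had no inserted nucleotide between D and J. Clonotypes 1, 2 and 5 used IGHD2-4, clonotype 3 IGHD2-5 and clonotype 4 IGHD3-2, with IGHJ2 in clonotypes 1 and 4, IGHJ3 in clonotypes 2 and 3, and IGHJ1 in clonotype 5. Of these 10 sequences, 8 began with tgtgcaaga, and in 7 the next letter was a capital G.

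IGHV5-4 held 12.9% of all clonotypes in the iB-μMT library (12.2% to 13.7%, a Wilson interval at the 95% level, as are the others given beside shares) and 3.47% in the B6 library (3.06% to 3.93%). Its share of reads was 8.62% (78420 of 909806) and 1.86% (25801 of 1383617), respectively. The clonotype share was thus 3.73-fold and the read share 4.62-fold that of the B6 library. By clonotypes, IGHV5-4 ranked first of 97 V genes in the iB-μMT library and number 4 of 104 in the B6 library. By reads, it ranked first and number 20.

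Within the IGHV5 family, IGHV5-4 made up 40.9% of 2465 clonotypes in the iB-μMT library (39.0% to 42.8%) and 27.1% of 868 in the B6 library (24.2% to 30.1%). The 8 other IGHV5 genes found in the iB-μMT library had 46 to 535 clonotypes and 0.278% to 3.72% of the reads. Those with the largest read shares were IGHV5-6 (3.72%), IGHV5-16 (1.94%) and IGHV5-17 (1.87%). In the B6 library, 9 other IGHV5 genes had 1 to 222 clonotypes and at most 1.498% of the reads.

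The V genes whose ratio of clonotype shares came closest to that of IGHV5-4 were IGHV5-6, IGHV5-12 and IGHV2-5. Likeness was the distance between log2 ratios of the iB-μMT to the B6 clonotype share, over the 62 V genes that had 20 or more clonotypes in both libraries. The log2 ratio was 1.90 for IGHV5-4, 1.82 for IGHV5-6, 2.00 for IGHV5-12 and 1.51 for IGHV2-5. IGHV5-4 had the third highest ratio of the 62, after IGHV2-2 (log2 ratio 2.42) and IGHV5-12.

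**Figure D1:**
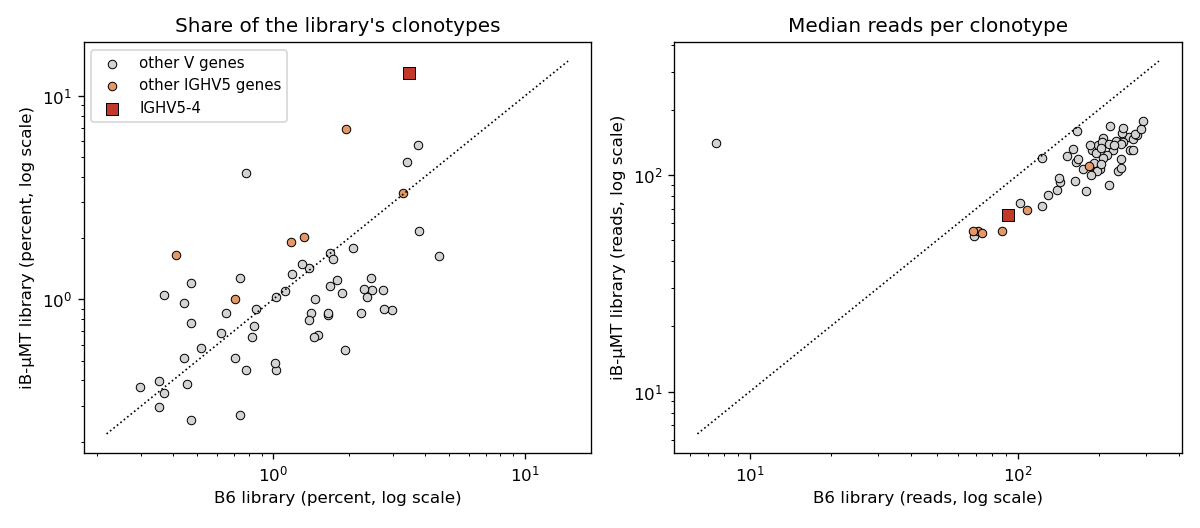
Each point is 1 of the 62 V genes that had 20 or more clonotypes in both libraries, and the dotted line marks equal values. Left, the share of the library's clonotypes (percent, log scales), where IGHV5-4 (square) lies at 3.47% in the B6 library and 12.9% in the iB-μMT library. Right, the median reads per clonotype (log scales), where IGHV5-4 lies at 92 and 65 reads among the lowest V genes of both libraries.

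IGHV5-4 reads were spread over many clonotypes. The lowest, median and highest read number per IGHV5-4 clonotype was 1, 65 and 704 in the iB-μMT library and 1, 92 and 436 in the B6 library. The largest clonotype held 0.898% and 1.69% of the IGHV5-4 reads, and the 10 largest together held 5.78% and 13.9%. It took 248 of 1008 and 55 of 235 clonotypes to make up 50% of the IGHV5-4 reads, close to 1 in 4 in both libraries. No single clonotype therefore carried the read share of the gene. Single reads supported 37 and 3 of the IGHV5-4 clonotypes, respectively.

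The reads per clonotype were lower for IGHV5-4 than for most V genes in both libraries. The median over the clonotypes of all other V genes was 104 reads in the iB-μMT library and 189 in the B6 library, so that IGHV5-4 stood at 0.625 and 0.487 of it. Ranked from the lowest, the median of IGHV5-4 was number 7 of 71 and number 7 of 65 V genes with at least 20 clonotypes. The other IGHV5 genes with that many clonotypes had medians of 48 to 110 reads (8 genes) and 68 to 183.5 reads (6 genes). Reads were not tied to molecules by molecular identifiers, and mRNA per cell, cells per clonotype and amplification cannot be told apart in the read numbers. The clonotype share of IGHV5-4 was larger than its read share in both libraries.

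**Figure D2:**
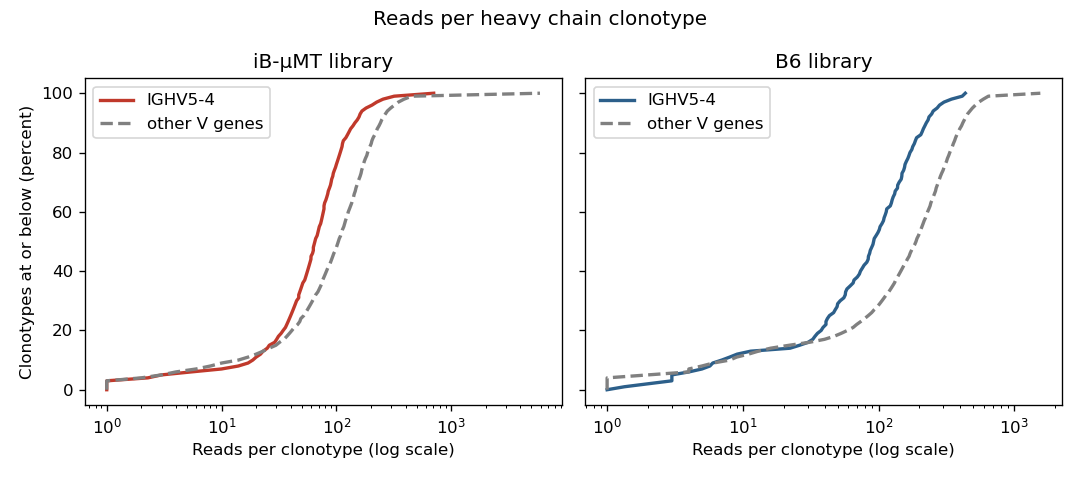
Cumulative distribution of reads per heavy chain clonotype (log scale) in the iB-μMT library (left) and the B6 library (right), as the percent of clonotypes at or below each read number. Over most of the range, the solid IGHV5-4 curves lie to the left of the dashed curves of the other V genes, with medians of 65 against 104 reads and 92 against 189 reads.

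The assignment to IGHV5-4 rested on a single V gene for most clonotypes. No other V hit was listed for 991 of 1008 IGHV5-4 clonotypes in the iB-μMT library (98.3%) and 233 of 235 in the B6 library (99.1%), whereas this was so for 65.5% and 57.4% of the clonotypes of other V genes. The first hit had the best score alone in every IGHV5-4 clonotype. IGHV5-4 was listed behind another V gene in 14 and 1 clonotypes. No IGHV5-4 CDR3 nucleotide sequence was found under another V gene of the same library. The best constant region hit was IGHM in 996 and 233 IGHV5-4 clonotypes and was missing in 12 and 2, and no other isotype was found. The cells were sorted as IgM+ IgD++, yet no IGHD hit was found either. The authors named the libraries IgG, IgK and IgL in their methods and did not state the primer on the constant region side. Whether other isotypes could have been amplified was not tested.

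J genes of IGHV5-4 clonotypes did not differ between the libraries beyond the test's threshold. IGHJ2 was the J gene found most often, with 360 of 1008 IGHV5-4 clonotypes (35.7%, 32.8% to 38.7%) in the iB-μMT library and 89 of 235 (37.9%, 31.9% to 44.2%) in the B6 library. IGHJ3 had 26.5% and 26.4%. IGHJ4, the J gene farthest from the D genes, had 26.5% and 21.3%, a difference of 5.21 percentage points (95% Newcombe interval -1.04 to 10.7). IGHJ1 had 11.3% and 14.5%, a difference of -3.16 points (-8.54 to 1.30). The adjusted p over all features and V genes was 0.582, 0.923, 1.0 and 0.467 for IGHJ1, IGHJ2, IGHJ3 and IGHJ4 (Fisher's exact test, two-sided, Benjamini-Hochberg). The read share of IGHJ2 within IGHV5-4 was 38.3% and 33.7%, so its order between the libraries was the opposite of that by clonotypes.

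Against the other V genes of the iB-μMT library, IGHV5-4 clonotypes had IGHJ1 less often (11.3% against 14.7%) and IGHJ3 more often (26.5% against 22.3%), but neither passed the threshold (adjusted p = 0.0734 and 0.0612, Fisher's exact test). With clonotypes of at least 5 reads only, both passed (adjusted p = 0.0457 and 0.0491, Fisher's exact test). IGHJ3 alone passed with near-identical clonotypes merged (adjusted p = 0.0412, Fisher's exact test). IGHJ1 alone passed with single V hits only and with the best D hit alone (adjusted p = 0.0195 and 0.0493, Fisher's exact test).

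D genes differed between the libraries. Among IGHV5-4 clonotypes with a D hit (895 and 210), IGHD4-1, the D gene nearest to the J genes, was found in 176 (19.7%, 17.2% to 22.4%) in the iB-μMT library and in 17 (8.10%, 5.12% to 12.6%) in the B6 library. IGHD1-1, near the other end of the D cluster, was found in 153 (17.1%, 14.8% to 19.7%) and 65 (31.0%, 25.1% to 37.5%). IGHD4-1 was the D gene found most often with IGHV5-4 in the iB-μMT library, and IGHD1-1 in the B6 library. The difference was 11.6 points for IGHD4-1 (6.45 to 15.6, adjusted p = 0.0016) and -13.9 points for IGHD1-1 (-20.8 to -7.44, adjusted p = 0.0008, Fisher's exact test).

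The other D genes with most IGHV5-4 clonotypes belonged to the IGHD2 family. IGHD2-3, IGHD2-4 and IGHD2-5 had 149, 139 and 83 IGHV5-4 clonotypes in the iB-μMT library (16.6%, 15.5% and 9.27%) and 28, 32 and 20 in the B6 library (13.3%, 15.2% and 9.52%). The family as a whole had 53.4% and 44.8%, a difference of 8.65 points (1.13 to 15.98) that did not pass the threshold (adjusted p = 0.218, Fisher's exact test). The IGHD3 family had 6.37% and 7.62%. No D hit was given for 113 of 1008 and 25 of 235 IGHV5-4 clonotypes (11.2% and 10.6%). Among those with a D hit, the best score was tied between D genes in 182 of 895 and 49 of 210 (20.3% and 23.3%). In such ties the first D gene listed was counted, so counts of single D genes are less certain.

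The IGHD5 family, pseudogenes in the RefSeq table, had 22 of 895 hits (2.46%) and 17 of 210 (8.10%), a difference of -5.64 points (adjusted p = 0.0104, Fisher's exact test). This call was lost in clonotypes without P nucleotide stretches longer than 4 at a D or J end (1.41% and 2.48%, adjusted p = 0.711, Fisher's exact test), in clonotypes whose best D hit stood alone (adjusted p = 1.0), and with at least 8 aligned D nucleotides (adjusted p = 0.338). Such long stretches, as MiXCR counted them, occurred in 11 of the 22 and 13 of the 17 IGHD5 hits. They lay at a D end in 10 and 13 of these hits.

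The D gene differences of IGHV5-4 were met in other V genes too. IGHD4-1 was higher in the iB-μMT library in 56 of 62 V genes, and 16.1% of the 62 passed the test in that direction. IGHD1-1 was lower in 55 of 62, and 11.3% passed. Over the pooled clonotypes of the other V genes, the difference was 8.77 points for IGHD4-1 (18.6% and 9.83%) and -11.2 points for IGHD1-1 (23.0% and 34.2%). The IGHD5 family was lower in 40 of 62 V genes, and IGHV5-4 was the single V gene called lower (1.61% of 62). IGHV5-4 had 1008 and 235 clonotypes, against medians of 78 and 89 over the V genes tested. The difference of IGHV5-4 was not shown to depart from that of the other V genes for IGHD4-1, IGHD1-1 or the IGHD5 family. The adjusted p was 0.835, 0.79 and 0.549, with an unadjusted p of 0.024 for the IGHD5 family (likelihood ratio test of the V gene by library term in a binomial logistic model).

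Within the iB-μMT library, IGHD1-1 was less frequent with IGHV5-4 than with the other V genes (17.1% against 23.0%, difference -5.92 points, -8.49 to -3.11, adjusted p = 0.0021, Fisher's exact test). IGHV5-4 was the single V gene of 62 called lower for it (1.61%). IGHV5-4 also had the most clonotypes of any V gene in this library, 1008 against a median of 78 over the V genes tested, and the tests of the other V genes rested on fewer clonotypes. Within the B6 library, the shares of IGHD1-1 were 31.0% and 34.2% (difference -3.29 points, -9.29 to 3.37, adjusted p = 0.802, Fisher's exact test).

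**Figure D3:**
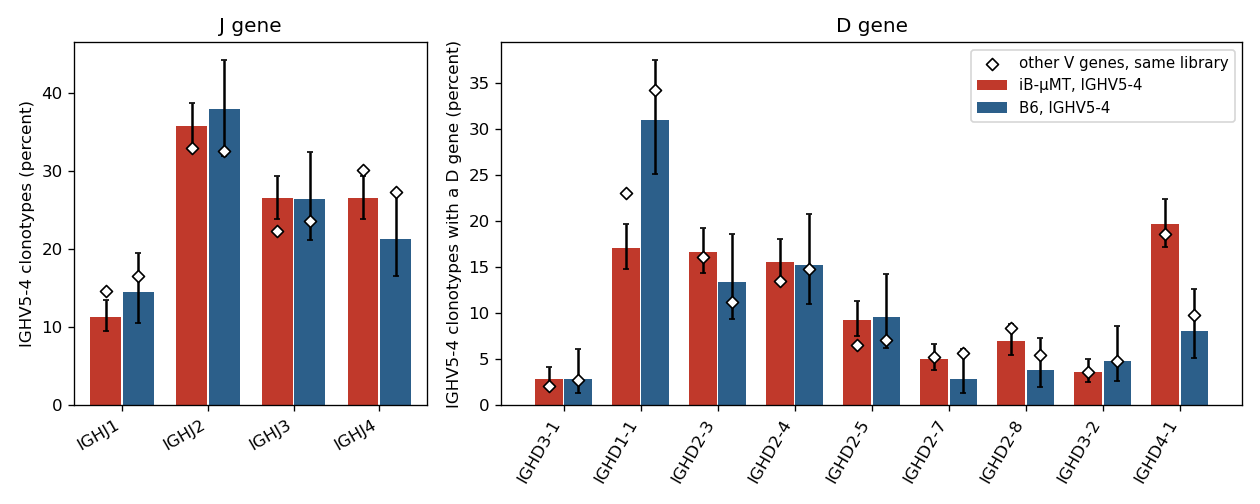
Bars give the share of IGHV5-4 clonotypes with each J gene (left) and, among clonotypes with a D hit, with each D gene (right, pseudogenes left out, from the V side to the J side of the locus), in the iB-μMT (red) and B6 (blue) libraries, in percent with 95% Wilson intervals. Diamonds give the same share over the other V genes of that library. IGHD4-1 stands at 19.7% and 8.10% and IGHD1-1 at 17.1% and 31.0%, and the diamonds differ between the libraries in the same directions.

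The J genes joined to each D gene are given as a description, since no test of pairs was set. In the iB-μMT library, 87 of 176 IGHV5-4 clonotypes with IGHD4-1 had IGHJ2 (49.4%, 42.1% to 56.8%), 50 had IGHJ3, 21 had IGHJ4 and 18 had IGHJ1. The IGHD1-1 clonotypes were spread more evenly, with 50 of 153 on IGHJ2, 38 on IGHJ3, 37 on IGHJ4 and 28 on IGHJ1. In the B6 library, the 17 IGHD4-1 clonotypes had 5 on IGHJ2 and 4 on each of the other J genes, and 30 of 65 IGHD1-1 clonotypes had IGHJ2.

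Fewer nucleotides were inserted between D and J in the iB-μMT library. No nucleotide lay between D and J in 465 of 895 IGHV5-4 clonotypes (52.0%, 48.7% to 55.2%) in the iB-μMT library and in 70 of 210 (33.3%, 27.3% to 40.0%) in the B6 library. The difference of 18.6 points (11.2 to 25.5) passed the test (adjusted p = 0.0001, Fisher's exact test) in all 12 alternatives in which it was tested (adjusted p at most 0.0169). The mean number inserted there was 1.30 ± 1.91 (SD, n = 895) and 2.42 ± 2.52 (n = 210), a difference of -1.12 nucleotides (-1.48 to -0.75). Inserted D–J nucleotides were 68.0% and 64.8% G or C.

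This difference was shared by most V genes and was not largest for IGHV5-4. Joins without a D–J insertion were more frequent in the iB-μMT library in 60 of 62 V genes, and 43.5% of the 62 passed the test in that direction. The median difference over the 62 was 25.7 points, and IGHV5-4 ranked number 46 from the highest. Over the pooled clonotypes of the other V genes, the shares were 54.4% and 28.7%. The term for a departure of IGHV5-4 from them had an adjusted p of 0.641 (unadjusted p = 0.0589, likelihood ratio test in the binomial model).

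The share without a D–J insertion was higher in the iB-μMT library with each J gene of IGHV5-4. It was 61.5% and 35.5% with IGHJ1, 51.4% and 32.1% with IGHJ2, 49.4% and 33.3% with IGHJ3, and 51.5% and 34.1% with IGHJ4. By D gene, it was 53.6% and 35.4% with IGHD1-1, 58.4% and 34.0% with the IGHD2 family, and 39.8% and 35.3% with IGHD4-1, the last over only 17 B6 clonotypes. These subsets were not tested.

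Several IGHV5-4 clonotypes of the iB-μMT library ended in an identical D–J join while differing toward V. The 465 clonotypes without a D–J insertion formed 252 combinations of D gene, J gene and end positions, and 83 of these combinations were met more than once. In the B6 library, 70 clonotypes formed 48 combinations, 13 of them met more than once. These numbers grow with the number of clonotypes and are not compared. The joins met most often in the iB-μMT library, chosen after their counts were seen, are shown from 6 bases before the D end that MiXCR placed to the end of CDR3. In the first and the second, MiXCR counted the next 5 and 4 bases as a P stretch of J. Whether these bases belong to D instead was not tested:
IGHD1-1 to IGHJ1: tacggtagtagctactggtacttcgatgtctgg
IGHD2-3 to IGHJ2: gatggttactactactttgactactgg
IGHD2-4 to IGHJ4: attacgactatgctatggactactgg

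Each ended 8 IGHV5-4 clonotypes of the iB-μMT library, with 436, 804 and 803 reads in all. In the B6 library, the first ended 2 IGHV5-4 clonotypes and the others none. The same 3 ends were met under other V genes, in 88, 25 and 53 clonotypes of the iB-μMT library and in 34, 2 and 8 of the B6 library, and were thus not seen with IGHV5-4 alone.

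Between V and D, the count of inserted nucleotides depended on where the V reference ended. The IGHV5-4 part of CDR3 that MiXCR recognised was 9 nucleotides long and was complete in 926 of 1008 clonotypes (91.9%) of the iB-μMT library and 211 of 235 (89.8%) of the B6 library. In these, the next nucleotide was G in 95.03% and 93.4%, and the next 2 were GA in 707 of 926 (76.3%) and 155 of 211 (73.5%). After a complete V end of the other V genes, GA followed in 16.7% and 16.9%. The start of CDR3 met most often in IGHV5-4, with the bases past the recognised end in capitals, was found in 703 and 154 clonotypes and reads:
IGHV5-4 start: tgtgcaagaGA

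The near constancy of these bases in both libraries is the reason why V–D values are given in both ways here, with the V end as MiXCR placed it and with the end extended by those bases. The extension was inferred from the clonotypes of each V gene, since no germline V sequence was used here. It gave 1 or 2 bases for 23 of 105 V genes and for 8 of the 10 IGHV5 genes.

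As MiXCR placed it, V–D junctions of IGHV5-4 had 3.88 ± 2.74 inserted nucleotides (SD, n = 895) in the iB-μMT library and 4.93 ± 3.37 (n = 210) in the B6 library, a difference of -1.05 (-1.54 to -0.56). The other V genes had 3.004 and 3.97. With the inferred V ends, IGHV5-4 had 2.55 and 3.58 and the other V genes 2.74 and 3.84. The order of IGHV5-4 against the other V genes therefore turned with the V end, while the order of the libraries did not.

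The same held for junctions without insertion. No nucleotide lay between V and D in 10.8% of IGHV5-4 clonotypes of the iB-μMT library against 17.3% of the other V genes (adjusted p = 2.5e-05), and with the inferred V ends the shares were 29.6% and 21.7% (adjusted p = 1.98e-05, Fisher's exact test), in the opposite direction. Of the 62 V genes, 3.23% were called lower for this feature as MiXCR placed the ends. The comparison of IGHV5-4 with other V genes at the V–D junction thus has no settled direction. The V end without deletion, 91.9% against 70.5% of the other V genes in the iB-μMT library (adjusted p = 4.38e-53) and 89.8% against 69.7% in the B6 library (adjusted p = 3.25e-10, Fisher's exact test), likewise shrank to 70.1% against 60.4% (adjusted p = 1.86e-07) and 66.0% against 62.7% (adjusted p = 0.79) with the inferred ends. As placed, 11.3% and 19.4% of the 62 V genes were called higher in the iB-μMT and B6 libraries.

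**Figure D4:**
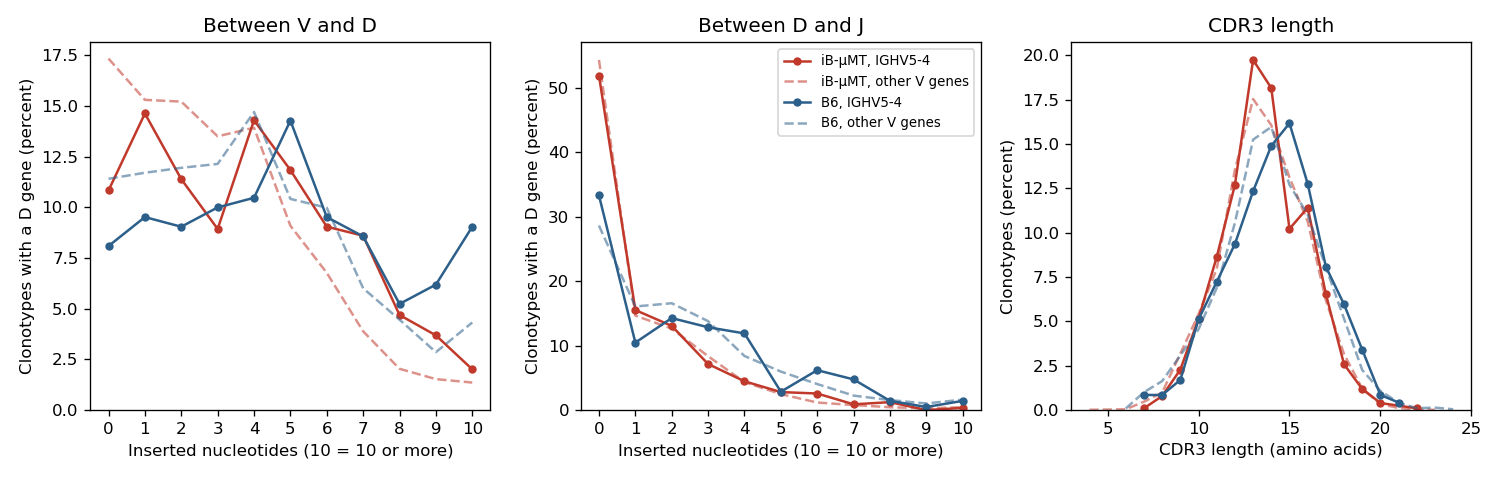
Distribution of inserted nucleotides between V and D (left) and between D and J (middle) among clonotypes with a D hit, and of CDR3 length (right) among all clonotypes, in percent of the clonotypes of IGHV5-4 (solid lines with points) or of the other V genes (dashed) in the iB-μMT (red) and B6 (blue) libraries, with V ends as MiXCR placed them. At D–J, 52.0% of the iB-μMT and 33.3% of the B6 clonotypes of IGHV5-4 had no inserted nucleotide, and the dashed lines differ in the same direction.

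Junctions without any inserted nucleotide were found in 51 of 895 IGHV5-4 clonotypes of the iB-μMT library (5.70%, 4.36% to 7.41%) and in 3 of 210 of the B6 library (1.43%, 0.487% to 4.12%). The difference of 4.27 points (1.27 to 6.23) did not pass the threshold with the V ends as MiXCR placed them (adjusted p = 0.0932, Fisher's exact test), and it passed with the inferred V ends (14.97% and 5.24%, adjusted p = 0.0028). Against the other V genes of the iB-μMT library (9.23%), the share of 5.70% was called lower (adjusted p = 0.0098, Fisher's exact test), as in 3.23% of the 62 V genes, but with the inferred V ends it was 14.97% against 11.7% and no longer called (adjusted p = 0.0917). That call was also lost with at least 8 aligned D nucleotides and without P stretches over 4 (adjusted p = 0.165 and 0.127, Fisher's exact test), and it was kept in 9 of 12 alternatives.

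These 51 clonotypes had 1 to 419 reads each, with a median of 78, and together 6.26% of the IGHV5-4 reads of the iB-μMT library. With V ends as MiXCR placed them, their D genes were of the IGHD2 family in 30 and IGHD4-1 in 15. IGHD1-1 was met in none of the 51 (0 of 153 IGHD1-1 clonotypes, 0.0% to 2.45%). With the inferred V ends, 134 of 895 had no inserted nucleotide, and their D genes were not counted. IGHD1-1 would not be absent there, since clonotype 1 of the iB-μMT library joined IGHD1-1 with only the G of GA inserted. In clonotypes without P stretches over 4, 47 of 780 in the iB-μMT library and 2 of 161 in the B6 library had no inserted nucleotide. Clonotypes without insertion as MiXCR placed the ends are printed because every base of them was assigned to V, D or J, P stretches included. They have the most reads in each library, after clonotype 5 of the iB-μMT library shown above:
iB-μMT without insertion, next: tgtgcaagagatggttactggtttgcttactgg
iB-μMT without insertion, after that: tgtgcaagagatggttactttgactactgg
B6 without insertion, first: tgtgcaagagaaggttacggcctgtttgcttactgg
B6 without insertion, next: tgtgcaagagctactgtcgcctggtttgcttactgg
B6 without insertion, last: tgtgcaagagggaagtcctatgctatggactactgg

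The iB-μMT sequences had 336 and 234 reads and joined IGHD2-3 to IGHJ3 and IGHJ2. The B6 sequences had 179, 138 and 39 reads, with IGHD2-3, IGHD5-8 and IGHD4-1. The 11 bases of the frequent IGHV5-4 start were also met in 22 of the 51 iB-μMT clonotypes and 1 of the 3 B6 clonotypes without insertion, where MiXCR assigned the last bases of it to the D gene.

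**Figure D5:**
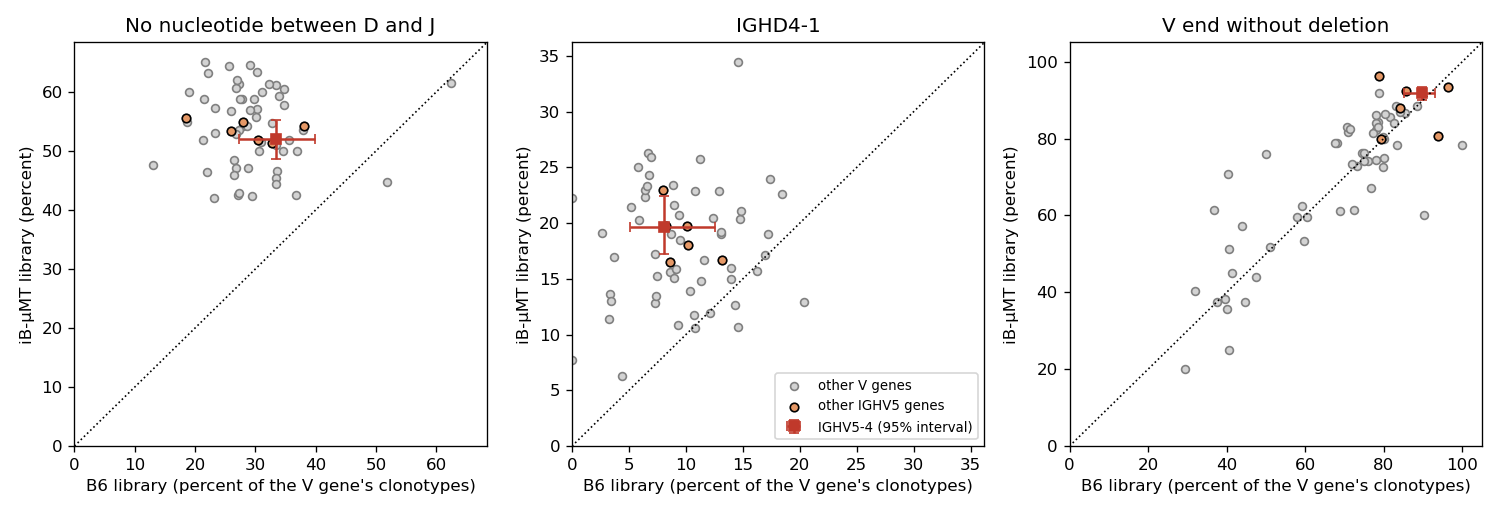
Each point is 1 of 62 V genes, placed by the percent of its clonotypes in the B6 library (x axis) and the iB-μMT library (y axis) that have no nucleotide between D and J (left), IGHD4-1 (middle, both among clonotypes with a D hit) or a V end without deletion as MiXCR placed it (right). The dotted line marks equal values, and IGHV5-4 (square, with 95% Wilson intervals) lies above it in the left and middle panels with most other V genes, and near the upper right corner in the right panel.

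CDR3 was shorter in IGHV5-4 clonotypes of the iB-μMT library, with a mean of 13.6 ± 2.27 amino acids (SD, n = 1008) against 14.2 ± 2.61 (n = 235) in the B6 library, a difference of -0.59 (-0.95 to -0.22). The length met most often was 13 amino acids in the iB-μMT library (19.7%) and 15 in the B6 library (16.2%). A CDR3 of at least 17 amino acids was found in 109 of 1008 (10.8%) and 44 of 235 (18.7%), a difference of -7.91 points (-13.7 to -2.98, adjusted p = 0.0358, Fisher's exact test), and 8.06% of the 62 V genes were called in that direction. A CDR3 of at most 11 amino acids was found in 16.96% and 15.7%, a difference of 1.22 points (-4.43 to 5.99). The other V genes had means of 13.6 and 13.9 amino acids. The mean number of inserted nucleotides on both sides of D together differed by -2.16 per clonotype (-2.70 to -1.63).

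Trimming at the J side also differed in the mean, by 0.75 nucleotides (0.11 to 1.39), where a higher value stands for less trimming or a longer P stretch, but by only 0.0221 in clonotypes with at least 8 aligned D nucleotides. Mean D ends are not interpreted, because their difference between the libraries changed sign when long P stretches were left out. Stretches of over 4 nucleotides that MiXCR counted as P were found in 12.8% of IGHV5-4 clonotypes with a D hit in the iB-μMT library. The share was 23.3% in the B6 library, against 13.3% and 15.9% for other V genes. At the D 5′ end of IGHV5-4 clonotypes they reached 21 and 29 nucleotides. Whether such stretches are P nucleotides or come from the alignment was not tested.

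Stop codons in CDR3 were rare in IGHV5-4. They were found in 6 of 1008 clonotypes (0.595%, 0.273% to 1.29%) and 4 of 235 (1.70%, 0.664% to 4.29%), with 109 and 196 reads. The difference of -1.11 points (-3.72 to 0.14) did not pass the test (adjusted p = 0.446, Fisher's exact test). Among the other V genes, the shares were 0.693% and 2.23%. Every heavy chain CDR3 listed, of IGHV5-4 and of the other V genes alike, was in frame, so the frame sets IGHV5-4 apart in no way.

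The 2 mice shared 2 IGHV5-4 clonotypes, which is 0.198% of those of the iB-μMT library and 0.851% of those of the B6 library. The first joined IGHD3-1 to IGHJ3 and had 96 and 53 reads, and the second joined IGHD2-4 to IGHJ2 and had 54 reads in the iB-μMT library and 1 in the B6 library:
shared clonotype 1: tgtgcaagaGAtcgggggtttgcttactgg
shared clonotype 2: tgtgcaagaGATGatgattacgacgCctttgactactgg

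Over all V genes, 34 clonotypes were shared. A single read, as for the second clonotype in the B6 library, was not tested for carry-over between libraries. Within each library, repeats at the protein level were few, and the 1008 and 235 nucleotide sequences gave 994 and 234 distinct amino acid sequences.

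Of the 17 features tested for IGHV5-4, 5 were called between the libraries, where 5.98% of all 1054 tests over 62 V genes were called. Against the other V genes of the same library, 4 were called in the iB-μMT library and 1 in the B6 library, where 4.74% and 6.07% of the 1054 tests were called. For the V gene by library term, none of the 17 was called, with 1 at an unadjusted p under 0.05, and 0.0% of the 1054 tests were called, with 82 at an unadjusted p under 0.05 (likelihood ratio test). For none of these features was the difference between the libraries shown to be particular to IGHV5-4.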

How the data were processed

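Heavy chain clonotypes of 1 iB-μMT and 1 B6 mouse were analysed (6 libraries in the series, and the 4 light chain libraries were not used here). The authors amplified cDNA by 5′ RACE, sequenced it on a MiSeq and assembled clonotypes with MiXCR. They deposited a read count per clonotype without normalization and a score for the lowest base quality in CDR3 (median 38 in IGHV5-4). Assembly merges reads with similar sequences, so single errors can be lost or kept as extra clonotypes. Totals were 909806 and 1383617 reads, of which 3 reads are 0.00033% and 0.000217%. Without molecular identifiers, intervals cover counting error only, over clonotypes. For the read share difference, the interval that decided whether it moved was over reads.

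Best hits were taken per clonotype, each counted once. Inserted nucleotides were those between segment ends as deposited, and P nucleotides were not counted as inserted. Features of each V gene with at least 20 clonotypes in both libraries were compared by two-sided Fisher's exact tests or a likelihood ratio test, with Benjamini-Hochberg adjustment over the 1054 tests of each contrast and a threshold of 0.05. The tests were checked on simulated clonotypes. The members, lists and tests were chosen with earlier results of these data known. Named were IGHV5-4, all J genes, the 5 most frequent D genes in each library, 3 IGHV5 genes by read share, the 3 V genes with the nearest ratio, and the clonotypes with sequence shown. The ratios of IGHV2-2, IGHV5-2 and IGHV2-3 were named after their values were seen. No cell type markers were set. The software was pandas 2.3.3, SciPy 1.17.1 and NumPy 2.4.6 under Python 3.11.15, and 10 alternatives were set with the design and 4 added after seeing the data.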

Additional observations from a re-analysis of the deposited data

How the results depend on the processing

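The called differences of IGHV5-4 between the libraries in IGHD1-1, IGHD4-1 and joins without a D–J insertion, and that in long CDR3, were called in every alternative with a test (12, 12, 12 and 11 alternatives). The IGHD5 call was lost in 3 alternatives, as given above. With V ends extended by the inferred bases, an alternative chosen after seeing the data, the lower share without any insertion and the lower share without V–D insertion within the iB-μMT library turned to 3.26 and 7.87 points higher, the features called within the B6 library fell from 1 to 0, and the difference in the mean V end moved to 0.0772. The cause of these changes is the construction of the alternative, which counts those bases as V. The difference in the mean D 5′ end turned from -1.16 to 0.0821 with at least 8 aligned D nucleotides, 0.613 without long P stretches and 0.576 with the best D hit alone, and that in the mean D 3′ end went from 2.74 to 1.13, -0.0632 and 0.831. The difference in the mean J end moved to 0.0221 with at least 8 aligned D nucleotides, and the cause was not tested. The clonotype share difference (9.47 points) moved to 12.4 with a single V hit listed. The read share difference (6.75 points) moved to 9.87 in that setting, 7.06 without long P stretches, 6.55 with the best D hit alone and 6.55 without the 10 largest clonotypes. The other 157 summary values stayed within their interval or within 1.5 times of the main count. Of the differences not called, 26 changed sign without being called. No paired analysis was possible because each group has 1 library, and for the same reason no replicate could be left out. The precision is limited by the 235 IGHV5-4 clonotypes of the B6 library, in which 3 clonotypes are 1.28%.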
